A study of Sus scrofa with 90 samples.

Results

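Skeletal muscle 6 h after an injection of propylene glycol was set against non-injected muscle of the same pigs. The comparison rests on 9 lesions of 6 h and 10 controls, which is 19 of the 48 muscle samples of the study, and 9 pigs gave both. Propylene glycol, which carries drugs that dissolve poorly in water, was given into the Longissimus dorsi, the long muscle of the back. Each of the 10 piglets (Sus scrofa, pigs C to L) received several injections at randomised sites and at different times before sampling, and gave a non-injected site together with lesions aged 6 h, 2 d, 7 d and 21 d, of which the table used here lists no 7 d lesion for pig J and no 21 d lesion for pig L. The control sites therefore belong to animals that carried lesions elsewhere in the same muscles, and the labels used here give no strain, sex or age. RNA of each sample was hybridised as radioactively labelled cDNA to 1 nylon array. The labels name 90 columns for 48 samples, with 10 lesions of 6 h, 10 of 2 d, 9 of 7 d, 9 of 21 d and 10 controls.

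A solvent injected into muscle damages the membranes of the fibres around the needle track. In the first hours after such an injury, fibres are known to lose cytosolic enzymes, to switch on stress and chaperone genes and to release signals that draw neutrophils and then macrophages. Rebuilding of the sarcomere, the contractile unit made of actin and myosin filaments, and fusion of new muscle cells follow over days.

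The values are logarithms, and the sources used here do not give the base. A difference of 1 log unit is 2-fold in base 2 and 2.72-fold on the natural scale, so differences are given in log units and not as folds. They are 6 h minus control, with the standard error (SE) of a limma fit across all features. Calls were made at adjusted p-values below 0.05 by limma with the Benjamini-Hochberg method over 1908 features. Only 206 of these features carry a gene symbol, for 121 genes, and 1702 carry none.

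Some facts about the arrays bear on every result. The 6 h array of pig F was left out because its values stood under the wrong features. Set against the average of all others, it gave r = 0.240 as listed and r = 0.739 over 910 features after a move along the feature list, where the remaining 47 arrays gave 0.718 or more as listed. Pig J had 2 columns for its 6 h lesion, and the one that duplicated the pig I control was left out. The values within an array were less spread at 6 h, with an SD over features of 0.744 ± 0.0926 (SD, n = 9) in 6 h lesions and 0.976 ± 0.237 (SD, n = 10) in controls. The mean paired difference was -0.222 (exact two-sided permutation of signs over 9 pairs, p = 0.0391, smallest possible p 0.0039), and it was negative in 7 of 9 pigs. Pigs C and L, whose control arrays had SDs of 0.528 and 0.594, went the other way. Quantile normalization gives all arrays 1 common spread. Without it the calls were 103 higher and 393 lower, in place of the 132 higher and 93 lower reported here, so the balance of rises and falls depends on this step.

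The symbols may stand on the wrong rows of the table, which could not be settled here and touches what every gene value below means. Features that share a symbol did not share a level. Over 116 features of 31 genes with several features each, the SD of the mean level within a symbol was 0.798, against 0.782 over all these features. For the 6 h difference it was 0.240 within a symbol, against 0.220. A gene name below therefore stands for a feature listed under that symbol, and where a gene has several features the one with the highest mean level is meant unless a number is given. In these bulk samples, fewer cells of a type and less RNA per cell cannot be told apart.

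At 6 h, 225 of 1908 features were called (11.8%), 132 higher (6.92%) and 93 lower (4.87%). Before adjustment, 515 features had a p below 0.05. On the normalized scale called rises had a median of 0.52 and ran up to 1.63, while called falls had a median of -0.36 and reached -0.59. On table values this order turned, with medians of 0.41 for rises and -0.67 for falls and extremes of 1.43 and -1.17. A difference beyond 1 log unit was seen in 9 rises and in 0 falls, and one beyond 0.5 in 75 rises and 5 falls. The median over all features was -0.016. All 9 pairs had the sign of the call for 81 of the rises and 40 of the falls, but the calls were made from these same pairs. In 47 features (2.46%) the 6 h and control values did not overlap at all, 36 of them higher and 11 lower at 6 h. With the SD of each array as a term in the model there were 137 rises and 25 falls, and with 2 arrays fewer (the pig J lesion of 6 h and the pig I control) 93 rises and 55 falls. Features with a symbol were called about as often (11.2%) as those without one (11.9%).

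**Figure D1:**
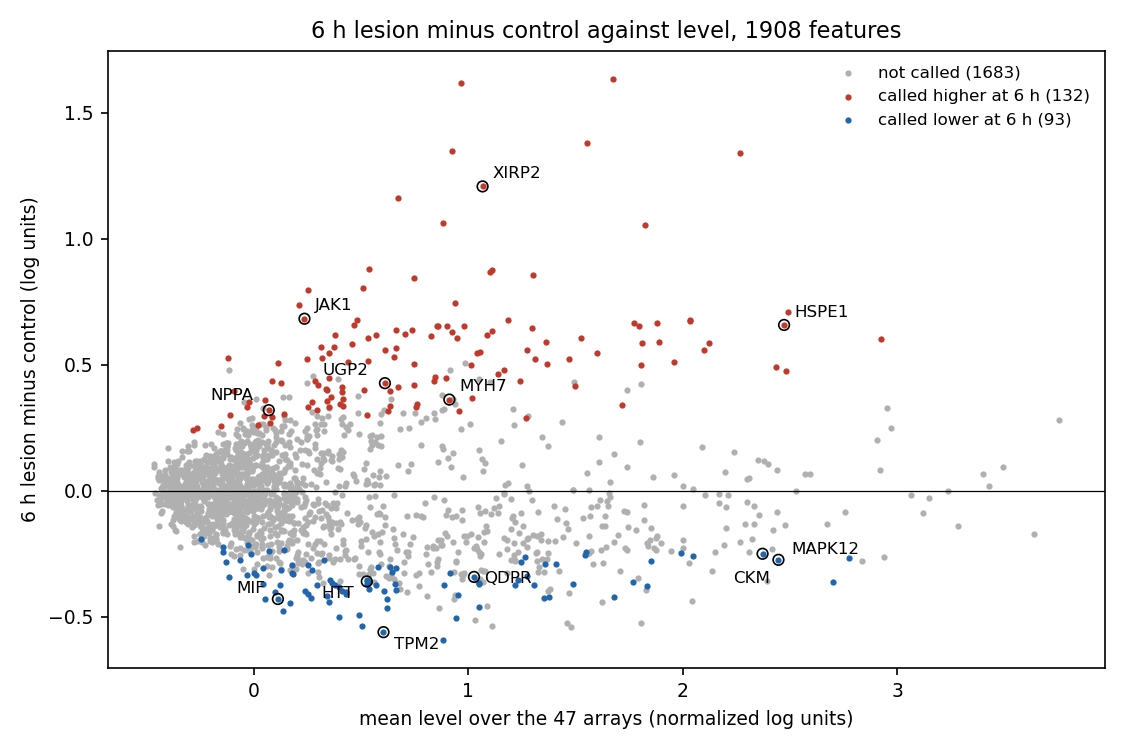
Difference between 6 h lesions and controls (y axis, log units) against the mean level over the 47 arrays (x axis, normalized log units) for 1908 features. Red points are the 132 features called higher and blue points the 93 called lower at 6 h, circles mark the 12 called genes, and the rises reach 1.63 while the falls end at -0.59.

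Calls were concentrated in bright features. With the features split into 5 groups of equal size by mean level, 0.785% were called in the dimmest group, 2.36%, 7.33% and 23.9% in the following ones and 24.6% in the brightest. Features called higher had a median mean level of 0.93 in 6 h lesions and 0.36 in controls, and features called lower 0.42 in 6 h lesions and 0.78 in controls.

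Of the 121 genes, 12 were called by their feature with the highest mean, 6 higher and 6 lower. The rises were XIRP2, JAK1, HSPE1, UGP2, MYH7 and NPPA, and the falls were TPM2, MIF, HTT, QDPR, MAPK12 and CKM. A further 6 genes had a called feature other than their brightest one. XIRP2, JAK1, QDPR and TPM2 were called in all 23 alternative fits. The call ended in 11 of them for MIF, in 9 of 22 for NPPA, in 8 each for UGP2 and CKM, in 5 each for MAPK12 and HTT and in 3 each for MYH7 and HSPE1. With the array SD as a term in the model MIF, CKM, MAPK12, HTT, MYH7 and NPPA were not called, and on table values, without quantile normalization, 3 genes were called higher and 32 lower. There QDPR was at -0.79 and HTT at -0.64, against -0.34 and -0.36 on the normalized scale, and MYH7 at 0.15.

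The largest rise of a gene was in XIRP2 (feature 7647), a protein that binds actin at the junctions of myofibrils and at the ends of fibres. Its normalized log values in the 6 h lesions were 0.76 at the lowest, 1.16 at the median and 1.49 at the highest, against -0.13, -0.028 and 0.36 in controls. Every 6 h lesion lay above every control. The difference was 1.21 (SE 0.115, adjusted p = 3.22e-10 by limma), positive in 9 of 9 pigs and between 0.40 in pig D and 1.52 in pig E. Pig D had both the lowest 6 h value and the highest control value of this feature. The other genes fixed as Z disc and intermediate filament members were not called, with MYOZ1, a Z disc protein that binds calcineurin, at -0.47 (SE 0.204, adjusted p = 0.129) and DES, the muscle intermediate filament desmin, at -0.24 (SE 0.240, adjusted p = 0.591). Both have 3 features, which ran up to 0.37 for MYOZ1 and 0.18 for DES, none of them called.

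JAK1 (feature 6876), a tyrosine kinase that relays signals of interferon and interleukin receptors, stood at 0.17, 0.54 and 0.84 (lowest, median and highest) in 6 h lesions, against -0.38, -0.21 and 0.12 in controls. The groups did not overlap. It rose by 0.68 (SE 0.111, adjusted p = 2.86e-05 by limma), with single pigs between 0.14 in pig L and 1.10 in pig E. Within the list of cytokine signalling and acute inflammation, 5 genes were measured, 1 of them called higher and 2 lower, where 6.92% and 4.87% of all features were, with a median difference of 0.020 beside the -0.016 of all features. A list this short cannot be read against those shares. MIF (feature 4921), a cytokine stored in many cells that acts on macrophages, was at -0.35, -0.065 and 0.57 in 6 h lesions, against -0.29, 0.34 and 0.77 in controls. These ranges overlap almost wholly. MIF fell by 0.43 (SE 0.138, adjusted p = 0.0343) and was lower in 7 of 9 pigs, with pigs C and D the other way. MAPK12 (feature 6522), the p38 kinase that is most abundant in muscle, had 2.06, 2.28 and 2.63 in 6 h lesions, against 2.42, 2.54 and 2.98 in controls. It was lower in 9 of 9 pigs, by 0.27 on average (SE 0.0791, adjusted p = 0.0178), although the highest 6 h lesions lay within the range of the controls. On table values it was -0.95.

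Of the 2 chaperones measured, HSPE1 was called and HSP90AA1 was not. HSPE1 (feature 5554), the small partner of the mitochondrial chaperonin that folds imported proteins, was at 2.37, 2.82 and 3.22 in 6 h lesions, against 1.95, 2.08 and 2.53 in controls. In each of the 9 pigs the 6 h lesion was higher than the control, and the ranges touched only because pig E had a high control. The difference was 0.66 (SE 0.0886, adjusted p = 1.07e-06 by limma). This rise depends on the scaling, with -0.029 on table values and -0.021 on median-centred values (adjusted p = 0.941 and 0.959). HSP90AA1, an inducible cytosolic chaperone, differed by -0.18 (SE 0.0968, adjusted p = 0.243).

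**Figure D2:**
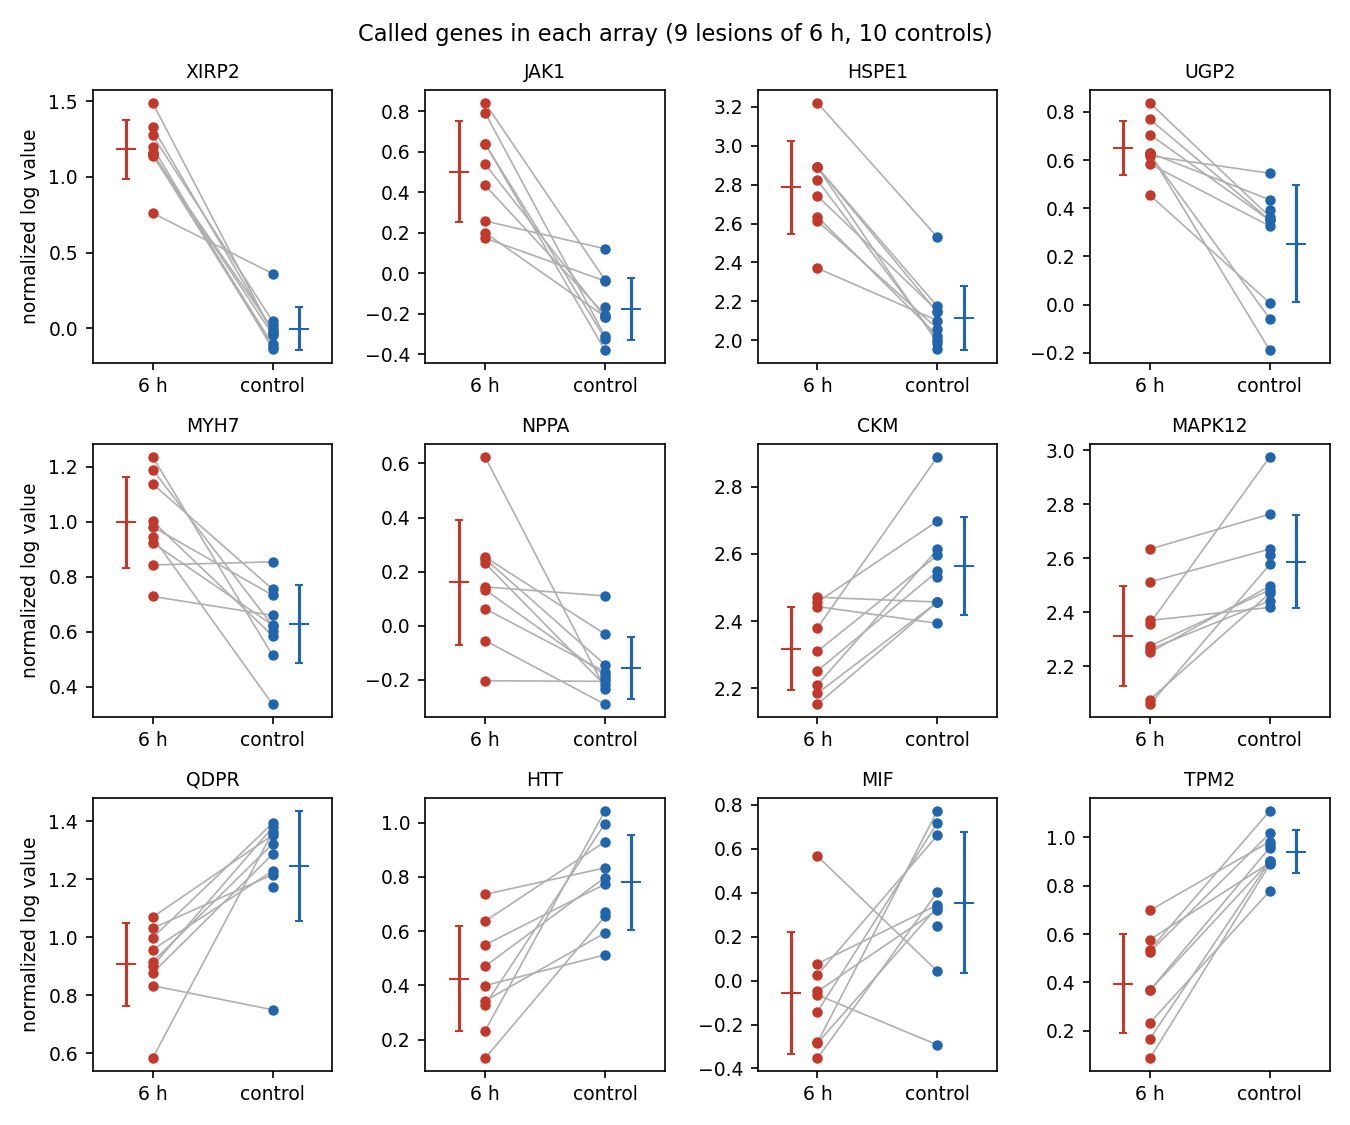
Normalized log values (y axis) of the 12 called genes in 9 lesions of 6 h (red, left) and 10 controls (blue, right). Each point is 1 array, grey lines join the arrays of a pig, and bars give mean and SD; XIRP2, JAK1 and TPM2 have no overlap between the groups, while those of MIF overlap almost wholly.

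Calls among muscle contractile genes were few, with MYH7 higher and TPM2 lower by their brightest features. Of 7 measured genes of slow and cardiac type muscle, 2 were called higher and 0 lower (median -0.035). The lowest was TNNT1 at -0.21 (SE 0.147, adjusted p = 0.394 by limma), and ANKRD1, ATP2A2, MYL2 and TPM3 were not called either. The background shares over all features were 6.92% and 4.87%, and a list this short cannot be read against them. MYH7 (feature 5503), the myosin heavy chain of slow fibres, was at 0.73, 0.98 and 1.24 in 6 h lesions, against 0.34, 0.62 and 0.85 in controls. The ranges overlapped at their ends. MYH7 rose by 0.36 (SE 0.092, adjusted p = 0.00692) and was higher in 8 of 9 pigs. A different MYH7 feature (4799) fell by 0.40 (SE 0.116, adjusted p = 0.0185), and the 2 others, 4610 and 6486, differed by -0.13 and -0.073 and were not called. NPPA (feature 7158), the precursor of the natriuretic peptide of the heart, was at -0.20, 0.14 and 0.62 in 6 h lesions, against -0.29, -0.19 and 0.11 in controls. It rose by 0.32 (SE 0.0998, adjusted p = 0.0299). All 9 pigs had a positive difference, though in pig H it was 0.86 and in the lowest pig 0.0022.

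TPM2 (feature 6108), the beta-tropomyosin that lies along the thin filament, had the largest fall among the called genes on the normalized scale. On table values its fall (-0.86) was smaller than those of CKM and MAPK12. It was at 0.086, 0.37 and 0.70 in 6 h lesions, against 0.78, 0.93 and 1.11 in controls, and the groups did not overlap. The fall was 0.56 (the difference was -0.56, SE 0.109, adjusted p = 0.000355 by limma), present in 9 of 9 pigs and between -0.80 and -0.28. Its other features, 7105 and 7957, had mean levels of 0.061 and -0.28 and differed by 0.13 and 0.053, neither called. TPM1, the other thin filament gene measured, differed by 0.11 (SE 0.149, adjusted p = 0.724).

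No gene of the fast fibre sarcomere was called by its brightest feature (0 of 7 measured, median 0.088). Over the 39 features of this list, 2 were called higher and 3 lower, which is near the 6.92% and 4.87% of all features. The called ones were not the brightest of their gene, and they are named here after their values were seen. MYLPF, the regulatory light chain of fast myosin, has 18 features, of which feature 7944 rose by 0.86 (SE 0.157, adjusted p = 0.000174), feature 6082 rose by 0.64 (SE 0.112, adjusted p = 0.00011) and feature 6113 fell by 0.36 (SE 0.103, adjusted p = 0.0186). For feature 7944 the 6 h values were 1.30, 1.53 and 1.78, against -0.024, 0.91 and 1.10 in controls, with no overlap. Its mean level over all arrays, 1.30, was close to the 1.33 of the brightest MYLPF feature. Both MYLPF rises ended on table values and on median-centred values. TNNC2, the calcium sensor of the fast troponin complex, has 12 features, of which 5336 and 5361 fell by 0.36 and 0.37 (adjusted p = 0.0038 and 0.0064 by limma) in 9 of 9 pigs. The brightest TNNC2 feature went the other way, at 0.33 without a call, and the median of the 12 was -0.021. The brightest MYLPF feature, 6058, was at -0.30 (SE 0.230, adjusted p = 0.44), and MYH2 was at 0.16 and TNNI2 at 0.088, none of them called.

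CKM, the muscle creatine kinase that buffers ATP and leaks into blood from damaged fibres, is listed for 10 features. Its brightest feature (5072) was at 2.15, 2.31 and 2.47 in 6 h lesions, against 2.39, 2.54 and 2.89 in controls, so that the lower end of the controls overlapped the upper end of the lesions. It fell by 0.25 (SE 0.0765, adjusted p = 0.026) and was lower in 7 of 9 pigs, and on table values the difference was -0.91. CKM feature 6100 rose by 0.56 (SE 0.141, adjusted p = 0.00686), and the other 8 lay between -0.29 and 0.30 without a call.

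Glycolysis and glycogen had 8 measured genes, 1 called higher and 0 lower, with a median of -0.22. The shares over all features were 6.92% and 4.87%, and a list this short cannot be read against them. UGP2 (feature 7638), which makes the UDP-glucose used for glycogen, had 0.45, 0.63 and 0.84 in 6 h lesions, against -0.19, 0.35 and 0.55 in controls. It rose by 0.43 (SE 0.133, adjusted p = 0.0299) in 9 of 9 pigs. GAPDH at -0.53 (SE 0.215, adjusted p = 0.104) and TPI1 at -0.22 (SE 0.0852, adjusted p = 0.086), both enzymes of glycolysis, were not called. This GAPDH feature had the lowest difference of 5, whose median was -0.016, and pig G had -2.40 in it. Among the dimmer features, ENO3 5922, listed for the muscle enolase, fell by 0.48 (SE 0.0952, adjusted p = 0.000485) with no overlap between groups, and PFKM 7526, the muscle phosphofructokinase, rose by 0.30 (SE 0.0869, adjusted p = 0.0187). Those features were named after their values were seen. PFKM 7526 had a mean level of -0.11, below the median of 0.058 over all features, and its call ended in 4 of 22 alternative fits. The brighter features of both genes were not called, at -0.23 for ENO3 and 0.21 for PFKM. Mitochondrial respiration had 4 measured genes and 0 calls, with COX7A1, a muscle form of a cytochrome oxidase subunit, at -0.26 (SE 0.104, adjusted p = 0.098), NDUFA4 at 0.065 and IDH2 at 0.047. The scaling moved these lists, since on table values 3 of the 8 glycolysis genes and 2 of the 4 respiration genes were called lower, with medians of -0.60 and -0.62 and 0 called higher.

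QDPR and HTT completed the called falls. QDPR (feature 5409), which regenerates the cofactor tetrahydrobiopterin, was at 0.58, 0.91 and 1.07 in 6 h lesions, against 0.75, 1.30 and 1.39 in controls. It fell by 0.34 (SE 0.0771, adjusted p = 0.0023) in 8 of 9 pigs, all but pig E, whose control was far below the others. HTT (feature 4922), the large scaffold protein huntingtin, had 0.13, 0.40 and 0.74 in 6 h lesions, against 0.51, 0.79 and 1.04 in controls. It fell by 0.36 (SE 0.113, adjusted p = 0.0304), lower in 9 of 9 pigs.

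Ribosome and translation was the list with most measured genes, 16, and 0 of them were called (median 0.020), where 11.8% of all features were. The ones with the smallest adjusted p were RPL19 at -0.25, EEF1G at -0.25 and RPS26 at 0.17 (adjusted p from 0.181 to 0.26 by limma). Of its 23 features, RPS20 5350 fell by 0.34 and RPL11 6282 by 0.44 (adjusted p = 0.0168 and 0.0064 by limma), again named after their values were seen. RPS20 has 3 features with a median difference of 0.044, and the other RPL11 feature was at 0.059 without a call. Neither fall was called with the array SD in the model. On table values 4 of the 16 genes were called lower. CAPNS1, the small subunit of the calcium-activated calpains and the only proteolysis gene measured, was at -0.32 (SE 0.182, adjusted p = 0.264). Of the dystroglycan complex and membrane repair, DMD was at 0.046 and POMGNT1 at -0.19, without a call.

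Cells other than muscle could hardly be followed. Of 22 lists, 7 had no measured gene, among them those for neutrophils, macrophages, lymphocytes, blood, adipocytes and satellite cells, and the list of early response genes. The fibroblast and matrix list had 2 measured genes and 0 calls, with FN1, fibronectin, at -0.19 (SE 0.0971, adjusted p = 0.201) and ANPEP, a cell surface peptidase, at 0.17 (SE 0.120, adjusted p = 0.408). Summed over both, the level ran between -0.33 and 0.83 in 6 h lesions and between -0.33 and 0.64 in controls. PECAM1, the only endothelial gene, differed by -0.094 (SE 0.0994, adjusted p = 0.621), with levels between -0.44 and 0.43 in 6 h lesions and between -0.22 and 0.14 in controls. The non-muscle cytoskeleton had 3 measured genes and 0 calls, with CFL1 at 0.082, ACTB at -0.020 and TUBA1B at -0.060. The part of other cell types in the called rises was not tested.

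Features that carry no symbol made up 122 of the 132 rises (92.4%) and 80 of the 93 falls (86.0%), near their share of 89.2% of all tested features. They have no gene identity in the files used here, and the 6 largest rises are given by feature number. Feature 4842 was at 1.48, 2.39 and 2.85 in 6 h lesions, against 0.49, 0.74 and 0.91 in controls, a difference of 1.63 (SE 0.136, adjusted p = 2.23e-11 by limma). Feature 7142 was at 1.43, 1.74 and 2.02 in 6 h lesions, against -0.22, 0.26 and 0.38 in controls, and rose by 1.62 (SE 0.153). In both, all 6 h lesions lay above all controls, with the smallest gap between a 6 h lesion and its own control at 0.98 for feature 4842 (pig D) and 1.19 for feature 7142 (pig J).

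The other 4 of these 6 rises also had no overlap between groups. A single sign in all 9 pigs was part of the choice of these features and is no result. Feature 5578 rose by 1.38 (SE 0.117), with 1.76 to 2.50 in 6 h lesions and 0.60 to 0.96 in controls. Features 4987, 5139 and 7914 rose by 1.35, 1.34 and 1.16, with adjusted p from 2.48e-11 to 1.85e-08 by limma. In feature 4987 pig D stood apart, with a difference of 0.33 where another pig reached 1.65. The largest falls with the same sign in all pigs were features 6487 at -0.51, 5841 at -0.50, 5748 at -0.47, 7767 at -0.46, 5903 at -0.43 and 4643 at -0.43 (SE from 0.0884 to 0.127), and in 6487, 5841 and 5748 the groups did not overlap.

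**Figure D3:**
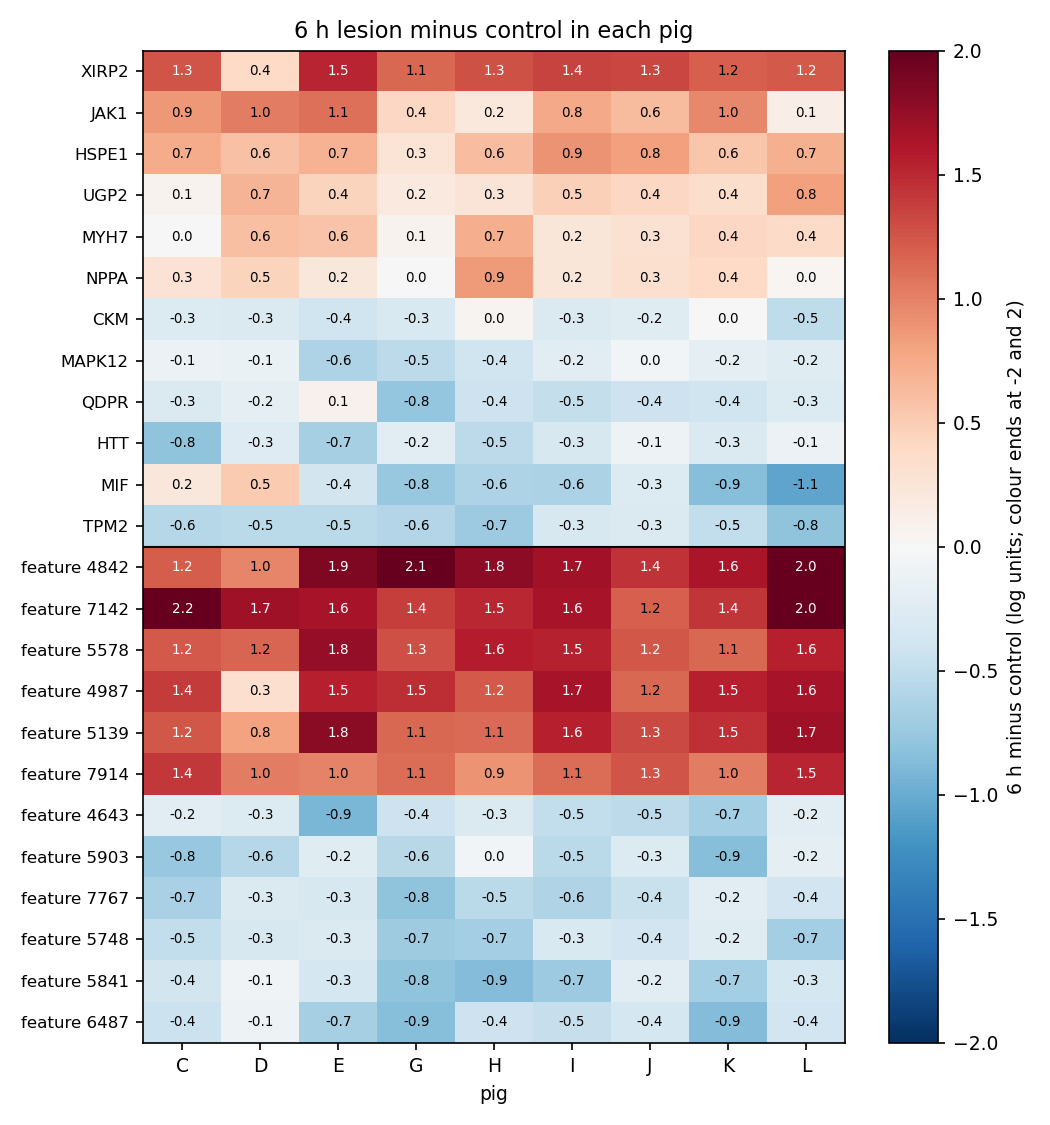
Difference between the 6 h lesion and the control of the same pig (colour and printed value, log units) for the 12 called genes (above the line) and 12 features without a symbol (below it) in the 9 pigs with both arrays. The unnamed features were chosen for having 1 sign in 9 pigs, so their agreement is set by the choice; their rises run from 0.33 to 2.17, and among the genes MIF is positive in pigs C and D.

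Pigs differed in how closely they followed the common pattern. Over all features, the difference of a pig correlated with the mean difference of the others at 0.691 in pig I, 0.670 in J, 0.575 in K, 0.542 in L, 0.536 in E, 0.413 in C, 0.369 in H, 0.253 in D and 0.238 in G. These are correlations across features, which are not independent replicates. The number of the 132 called rises that were positive ran from 114 in pig G to 132 in pigs I and J, and that of the 93 called falls that were negative from 76 in pig D to 92 in pigs I and K. The calls were made from these same pigs, so high counts are partly built in.

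The 6 h array of pig F, which the fit did not use, gave values for part of the features once it was moved into register. Of 76 called rises with such a value, 48 (63.2%) were higher than in the control of pig F. Of 48 called falls, 45 (93.8%) were lower. Among 786 features without a call, 41.3% were higher and 58.7% lower, so the moved array leaned to lower values in all. XIRP2 was at 1.16 in that array, against 0.021 in the control of pig F. TPM2 was at 0.53, against 0.96 in that control, and HSPE1 at 2.14, against 1.94. CKM feature 5072 stood at 0.034, against 2.52 in the control, far below the lowest of the other lesions. Feature 5578 was at 1.85, against 0.89 in that control, but feature 5139 was at 1.02, against 0.99, and PFKM 7526 at -0.34, against -0.24, so these 2 did not show their rise there.

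Lesions of 6 h differed in more features from those of 2 d than from older ones. Direct contrasts of the same fit, which use no control, called 118 features against 2 d (6.18%, 89 higher and 29 lower at 6 h), 31 against 7 d (1.62%, 9 higher and 22 lower) and 31 against 21 d (1.62%, 11 higher and 20 lower). At an unadjusted p below 0.05 there were 341, 190 and 182. In 26 of the 35 named features called at 6 h, the 2 d mean lay nearer to the control mean than to the 6 h mean, so that levels did not follow the order of the ages, although these features were chosen for their 6 h difference. The age labels could not be checked against another source and are taken as given. The counts against every age depended on the scaling. On table values limma called 40 features against 2 d, 0 against 7 d and 16 against 21 d (242, 112 and 151 at an unadjusted p below 0.05). No contrast with 7 d, those of XIRP2 and feature 5139 included, was called on table values.

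XIRP2 had a mean of -0.0037 ± 0.14 in the 10 controls. It was 1.18 ± 0.20 in the 9 lesions of 6 h, 0.076 ± 0.22 in the 10 of 2 d, 2.10 ± 0.39 in the 9 of 7 d and 2.22 ± 0.44 in the 9 of 21 d (SD over samples). Its level at 6 h was above that at 2 d by 1.13 (adjusted p = 3.65e-09 by limma) and below that at 7 d and 21 d by 0.87 and 1.01, on the log scale (6 h minus 7 d was -0.87, adjusted p = 4.03e-06, and 6 h minus 21 d was -1.01, adjusted p = 6.46e-08). Feature 5139 had the same order, with 0.99 ± 0.096 in controls, then 2.34 ± 0.29 for the 6 h lesions, 1.08 ± 0.19 for those of 2 d, 3.44 ± 0.38 for those of 7 d and 3.75 ± 0.15 for the oldest (SD, same n). On the normalized scale all the steps from 6 h to another age were called for both features, while on table values those to 7 d were not. Both were chosen for their rise at 6 h, which favours a higher level at 6 h than at 2 d. ANPEP, not called at 6 h, was lower at 6 h than at 7 d (-0.48, adjusted p = 0.0368) and 21 d (-0.96, adjusted p = 5.12e-07).

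JAK1 at 6 h exceeded 2 d by 0.50 (adjusted p = 0.00249), and its differences of -0.054 from 7 d and 0.14 from 21 d were not called. HSPE1 at 6 h exceeded 2 d by 0.38 (adjusted p = 0.00421) and 21 d by 0.34 (adjusted p = 0.042 by limma). Features 4842, 7142, 5578, 4987 and 7914 were higher at 6 h than at 2 d by 1.28, 1.67, 1.11, 1.15 and 1.17, each called. Against 7 d none of these 5 was called, and against 21 d only feature 7142 was, at 0.70 (adjusted p = 0.007 by limma). JAK1, HSPE1 and these 5 features were chosen for their rise at 6 h. The same 6 h arrays enter these contrasts, so the choice favours higher values at 6 h.

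Among the falls, TPM2 and QDPR were lower at 6 h than at 2 d by 0.35 and 0.27 on the log scale (6 h minus 2 d was -0.35 and -0.27, adjusted p = 0.0487 and 0.0265 by limma). Both were chosen for their fall at 6 h, which favours lower values at 6 h in this contrast. UGP2, MYH7, NPPA, CKM, MAPK12, HTT and MIF differed from 2 d by between -0.20 and 0.15, without a call. For these 7 genes a difference between 6 h and any later age was not shown.

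**Figure D4:**
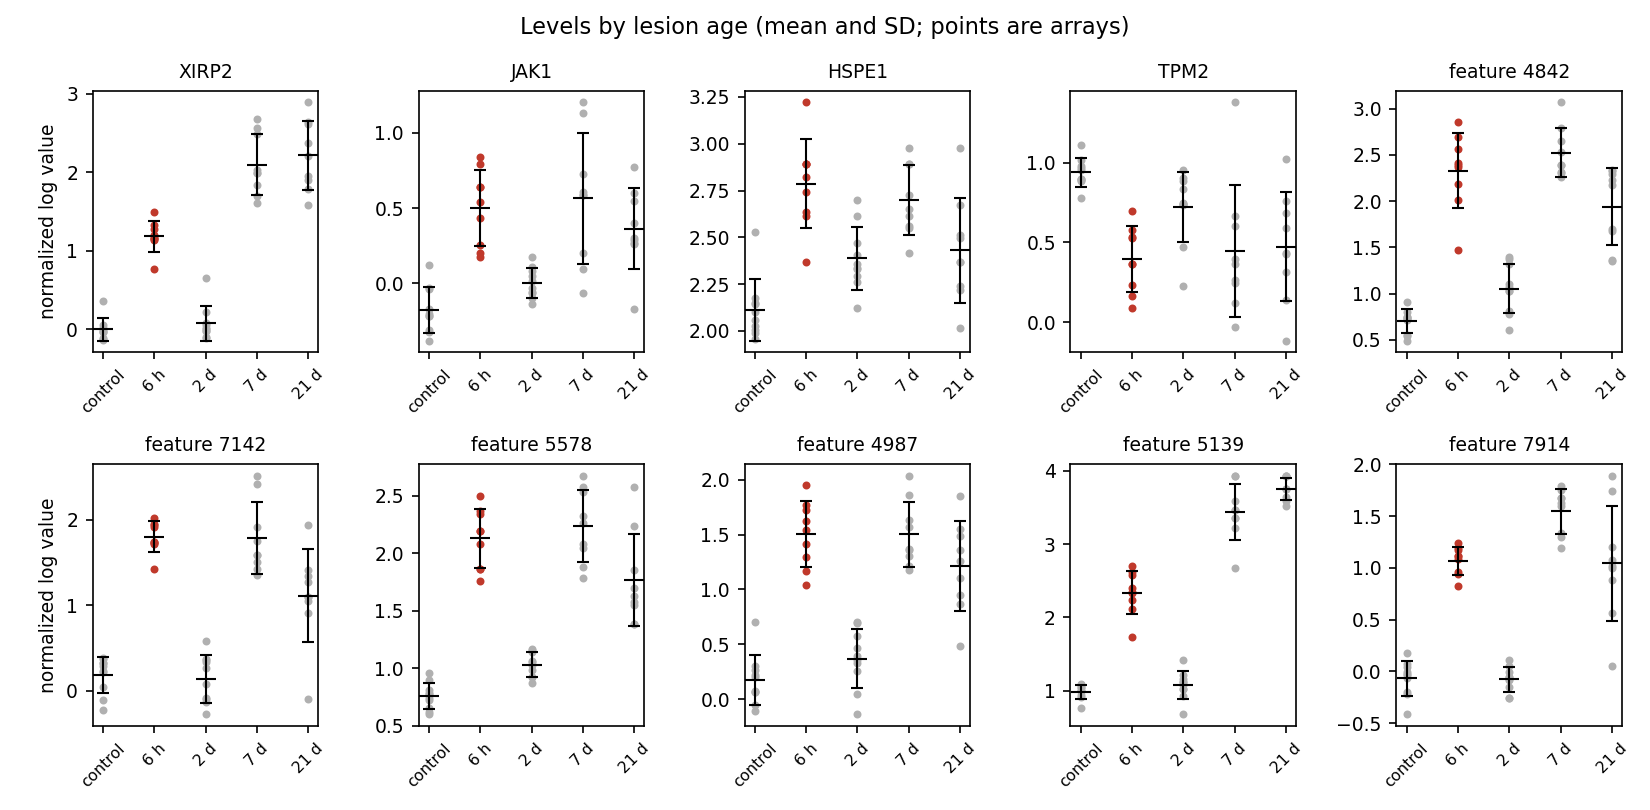
Normalized log value (y axis) by lesion age, controls at the left (x axis), for XIRP2, JAK1, HSPE1, TPM2 and 6 features without a symbol. Points are arrays (6 h in red), bars are mean and SD; the XIRP2 mean is 1.18 in 6 h lesions, 0.076 in those of 2 d and 2.10 in those of 7 d.

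Rises and falls were unevenly placed on the feature list. The list was cut into 12 stretches, of which stretches 1 to 6 hold 1319 tested features and stretches 7 to 9 hold 526. Stretches 1 to 6 held 74 called rises and 92 called falls, and stretches 7 to 9 held 58 rises and 1 fall. Subtracting a running local trend from each array gave 105 rises and 47 falls in stretches 1 to 6, and 42 rises and 4 falls in stretches 7 to 9. TPM2, CKM, MAPK12, QDPR, HTT and MIF all lie in stretches 1 to 6. Among the called rises, JAK1, HSPE1 and MYH7 lie there too, and XIRP2, UGP2 and NPPA lie in stretches 7 to 9. Medians of the difference over all features ran from -0.090 to -0.019 in stretches 1 to 6. In stretches 7 to 9 they ran from 0.040 to 0.080. With the local trend subtracted, UGP2, NPPA, CKM and MAPK12 were no longer called. Whether the position on the list has a part in the calls beyond this was not tested.

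**Figure D5:**
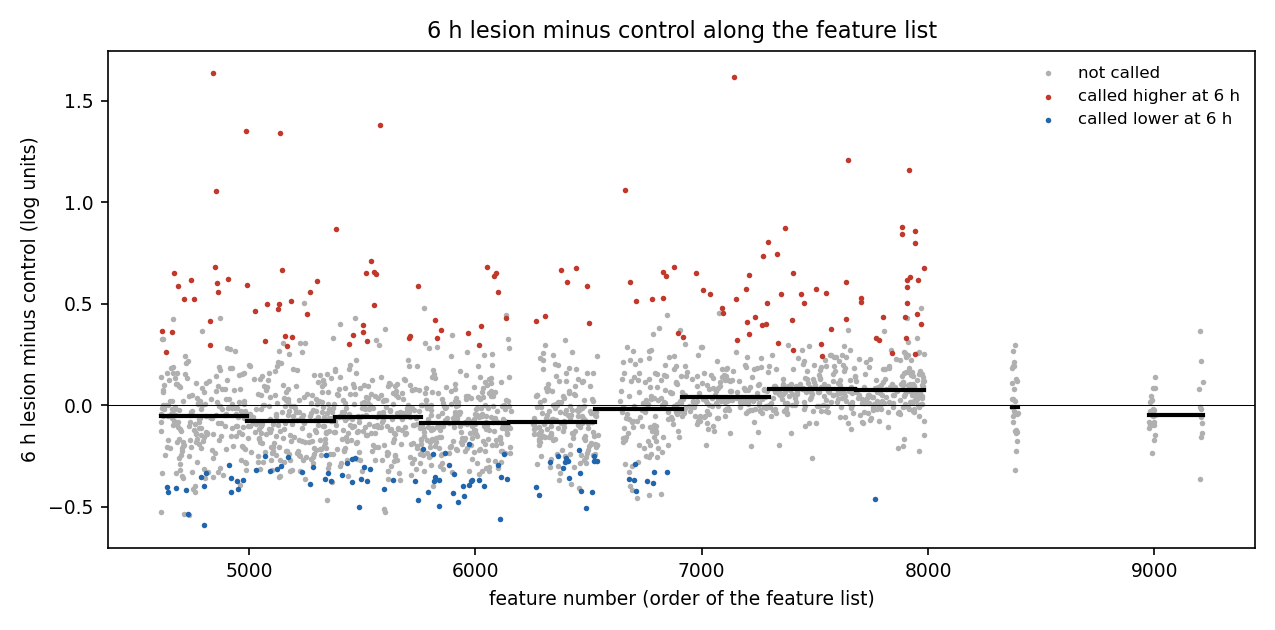
Difference between 6 h lesions and controls (y axis, log units) against feature number (x axis) for all tested features. Red and blue points are features called higher and lower at 6 h, black bars are medians of the stretches; stretches 7 to 9 hold 58 rises and 1 fall.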

How the data were processed

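The authors deposited 1 table with 90 columns, whose values, from -1.33 to 5.00, are of an other unit, on a log scale; the base and the authors' background correction, centring and choice of features with values are not given in the sources used here. Per the labels' design text, every feature is spotted in duplicate on an array, and arrays were read at 25 micrometres. Of 4608 features, 1908 were complete over all columns and tested, 2695 had none and 5 had values in some columns. For 42 samples 2 columns were listed, and in 41 of them the values were identical (tolerance 1e-09), so averaging left these unchanged. Identical columns hold 1 set of values and add no replicate. The differing pair was the 6 h lesion of pig J, whose copied column was left out. Array medians ran from 0.012 to 0.124. Symbols came from the platform annotation, and the gene identifiers of 204 of the 206 named features matched a current gene table.

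From these log values the 47 arrays were quantile normalized and fitted by lmFit and eBayes (limma 3.58.1, R 4.3.3) on group and pig, over 5 groups. Pig was a fixed block because the arrays of a pig come from 1 animal; pigs J and L lack the 7 d and the 21 d lesion in the table. Deviations from the group means correlated at a median of -0.068 between the 6 h and control arrays of a pig (from -0.26 to 0.31, n = 9) and at -0.023 between those of different pigs (n = 72), so the pairing rests on the design. Each pig is 1 animal. Arrays carry no count of molecules, so their number limits the precision. The script was tested on simulated data. Tables were handled with numpy 2.4.6 and pandas 2.3.3, and figures drawn with matplotlib 3.10.9.

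Named were all genes called by their feature with the highest mean, up to 3 members of each list with the smallest adjusted p, and the 6 largest rises and falls without a symbol that had 1 sign in 9 pigs; other features are marked. The comparison, the 22 gene lists and the tests were chosen with earlier results of these data known. The alternatives were another scaling (2 ways), other handling of the arrays of pigs F and J, no or a random block, array SD or array weights in the model, removal of a local trend, a filter on dim features, only controls and 6 h lesions in the fit, and leaving out each pig.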

Additional observations from a re-analysis of the deposited data

Results flagged for a closer look

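In 21 of 146 groups of values tested, 1 array stood far from the rest of its group; chance alone gives about 1 in 20. Among 6 h lesions, pig D was lowest for TNNC2 feature 5336 (1.12) and XIRP2 (0.76) and highest for MIF (0.57), and pig G was lowest for QDPR (0.58), TNNT1 (-0.13) and GAPDH (-0.25) and highest for TNNI2 (0.15), ACTB (0.71) and the CKM features 7382 (1.34) and 5806 (1.18). Among controls, pig D was highest for XIRP2 (0.36), feature 4987 (0.71) and CKM feature 7246 (0.19), pig E was highest for HSPE1 (2.53) and IDH2 (2.89) and lowest for QDPR (0.75) and feature 5139 (0.76), pig C was lowest for PFKM (-0.48), pig L highest for feature 5748 (1.16), pig K highest for feature 6487 (1.71) and pig I highest for MYOZ1 (2.29).

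The 6 h lesions differed from lesions of another age in 27 tested contrasts of named features (limma, adjusted p below 0.05). Over all features, 6.18% were called against 2 d, 1.62% against 7 d and 1.62% against 21 d. Many of the named features were chosen for their 6 h difference from control. The same 6 h arrays enter these contrasts, so the count cannot be read against those shares. From 2 d lesions, the 6 h lesions differed by 1.13 for XIRP2, 0.50 for JAK1, 0.38 for HSPE1, 0.64 and 0.61 for MYLPF features 7944 and 6082, 0.40 for PFKM feature 7526, -0.33 for TNNC2 feature 5336, -0.27 for QDPR and -0.35 for TPM2. Without a symbol, 4842 differed from 2 d by 1.28, 7142 by 1.67, 5578 by 1.11, 4987 by 1.15, 5139 by 1.25, 7914 by 1.17, 7767 by -0.32, 5748 by -0.36 and 6487 by -0.42. From 7 d lesions, 6 h minus 7 d was -0.87 for XIRP2, -1.11 for feature 5139 and -0.48 for ANPEP, none of them called on table values. Against 21 d it was -1.01 for XIRP2, 0.34 for HSPE1, 0.70 for feature 7142, -1.43 for feature 5139, -0.96 for ANPEP and 0.57 for CKM feature 6100.

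The 6 h array of pig F, outside the fit, had XIRP2 higher than its control by 1.14 once moved into register.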

How the results depend on the processing

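The 225 features called (132 higher, 93 lower) and the 12 genes called were recomputed in 23 alternative fits. Array weights gave 615 called features (270 higher, 345 lower) and 35 genes, and all 225 were among them. Table values gave 496 (393 lower, 150 shared with the 225) and 35 genes, median-centred values 518 (402 lower, 156 shared) and 38 genes, and both turned HSPE1, to -0.029 and -0.021. Called falls numbered 25 with the array SD in the model, 51 with the local trend subtracted and 55 with the pig J lesion of 6 h and the pig I control both removed, which left 148 called features (144 shared). With the pig as a random block 201 features were called (124 higher, 77 lower) and with no replicate block 220 (132 higher, 88 lower), and no named gene lost its call. Leaving out each pig in turn gave 151 (pig E) to 257 (pig D) called features, 99 (pig K) to 141 (pig D) rises, 45 (pig E) to 116 (pig D) falls, with 53 without pig K, and 6 (pig E) to 13 genes. The array SD difference ran from -0.28 to -0.20 (-0.280 without pig C, -0.201 without pig D), and its exact permutation p from 0.0156 to 0.0781, above 0.05 without pig D, E, G, H, I, J or K. No alternative moved the median of all features by 0.1 or more; the cause of these changes was not tested. The contrasts with other ages were recomputed after seeing the data. Against 7 d, 31 calls became 1 on median-centred values, 0 on table values (limma; 112 before adjustment), 68 with array weights, 19 with array SD, 17 with the local trend subtracted and 10 to 20 without pig E, F, G, I, K or L; against 21 d they became 17 and 16 on those scales, 81 with weights, 20 with the 6 h array of pig F kept in place and 53 without pig D; against 2 d, 118 became 43 and 40 on those scales and 315 with weights.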
